A study of Mus musculus with 12 samples.

Results

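Glial RNA from sorted cells that carried 2 fluorescent reporters was compared with RNA from sorted cells that carried the green one alone. The comparison took the 4 libraries labelled eGFP/tdTomato and the 4 labelled eGFP, which are 8 of the 12 libraries of the study and were chosen by their labels. Each group holds sets 1, 2, 3 and 5. All animals were C57BL/6 mice at postnatal day 7 with the genotype Aldh1L1-GFP/Olig2-tdTomato, so both reporters were present in the animals of every group, and the groups differ in the fluorescence of the cells collected. The brachial and thoracic spinal cord was dissociated with papain, cells were separated by flow cytometry, and libraries of total RNA were read on a BGISEQ-500. The other 4 libraries, labelled tdTomato, entered the fit to share its estimate of the spread and give a reference level. The labels call the libraries of a group biological replicates but give neither the sort gates, the animals per library nor the construction of the reporters, so a p-value here reflects only how these libraries vary. In RNA from many cells, fewer cells of a type and less RNA per cell cannot be told apart.

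Aldh1l1 encodes a folate enzyme used as a general astrocyte marker. Olig2 encodes a transcription factor that patterns the ventral spinal cord, directs the formation of motor neurons and oligodendrocytes, and stays on in oligodendrocytes and in some astrocytes. The cord also holds ependymal cells with motile cilia around the central canal, microglia in the tissue, and fibroblasts and border macrophages in the meninges, and each of these types has genes by which its RNA can be recognised.

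The eGFP libraries held 12564767 to 27898597 counts in genes and the eGFP/tdTomato libraries 23915784 to 30299452. The library eGFP 1 had the fewest. The counting assigned 57.1% of its reads to no annotated feature, against 21.2 to 42.5% in the other 11 libraries. Calls are therefore given with all libraries and without the 3 libraries of set 1. Libraries of set 3 stood apart in another way: 4 Y-linked genes summed to 203 CPM (read counts per 1e6 counts of the library, scaled by TMM factors) in eGFP 3, 205 in eGFP/tdTomato 3 and 239 in tdTomato 3, and to 0.223 CPM or less in the other 9. Over 11978 genes of at least 5 CPM, a pair of eGFP/tdTomato libraries differed 2-fold or more at 2.50 to 10.4% of genes and a pair of eGFP libraries at 4.53 to 25.6%, or 4.53 to 11.8% without eGFP 1. A pair with 1 library of each fraction differed at 8.59 to 33.5% of genes, or 8.59 to 18.7% without eGFP 1.

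With both reporters, 11 of 20 tested genes of myelin and mature oligodendrocytes and 7 of 23 of mitosis were higher, as were the single genes Chst7, Hapln1 and Grm5. Lower were 29 of 34 genes of motile cilia, 8 of 16 of border macrophages and 8 of 19 of microglia. So were 7 of 21 genes of meningeal fibroblasts and the single dorsal factors Zic4, Lmx1a and Msx1. Dorsal factors did not fall as a group: of 18 roof plate and dorsal domain factors, 10 had a positive log2 fold change and 8 a negative one. All 5 Zic factors were negative. Without set 1, 1 of the mitosis genes was called, and without set 5, 1 of mitosis, 6 of myelin and 2 of microglia. Of 29361 genes tested with edgeR, 239 were higher with both reporters (0.814%) and 491 lower (1.67%) at an adjusted p under 0.05, together 2.49%. A difference of 2-fold or more was seen for 184 of the higher and 455 of the lower genes. The 4 eGFP/tdTomato libraries lay above the 4 eGFP libraries for 235 of the 239 and below them for 483 of the 491, where 3.75% and 4.18% of all genes tested had no such overlap. Beside the tdTomato mean, 104 of the 239 higher genes were highest in the tdTomato fraction (43.5%, against 29.2% of all genes tested), 107 lowest there (44.8%, against 62.2%) and 28 between. Of the 491 lower genes, 358 were lowest in the tdTomato fraction (72.9%).

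Without set 1, 28750 genes were tested, and 137 were called higher (0.477%) and 369 lower (1.28%), or 1.76% in either direction. Of the genes called with all libraries, 113 of 239 and 351 of 491 were called in both fits, and all 239 and all 491 kept their direction. The median log2 fold change of the 239 was 1.29 with all libraries and 1.22 without set 1, and that of the 491 was −2.27 and −2.37. The median over all genes tested was −0.02 with all libraries and 0.12 without set 1. The numbers called also moved with single libraries: without eGFP 3, 475 genes were higher and 533 lower, and without eGFP/tdTomato 3, 103 were higher and 368 lower. Without the 3 libraries of set 5, 60 were higher and 201 lower. Of 120 genes named here and called with all libraries, 95, 90, 103 and 73 were called without set 1, 2, 3 and 5.

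**Figure D1:**
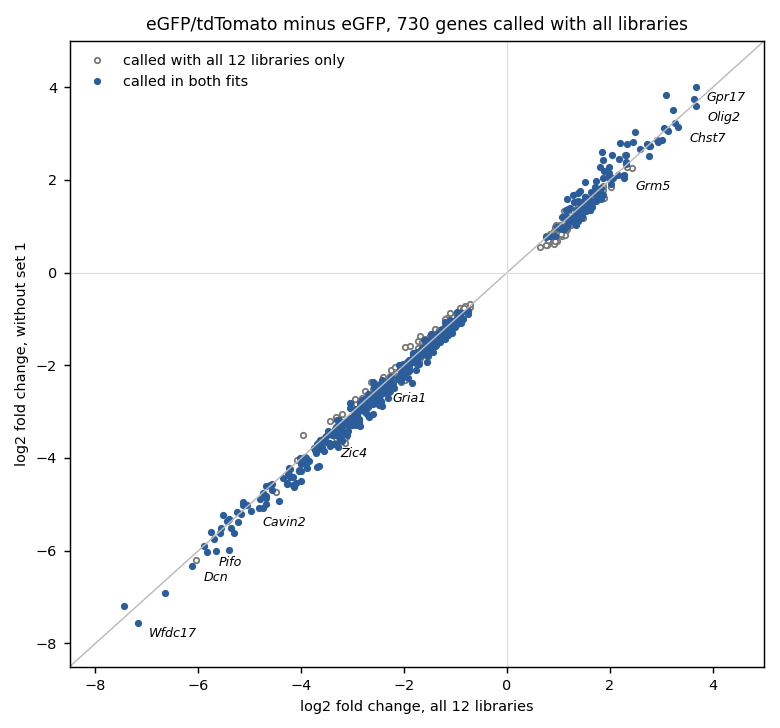
Log2 fold change (eGFP/tdTomato minus eGFP) of the 730 genes called with all 12 libraries, with all libraries on the x axis and without set 1 on the y axis. Filled points are genes called in both fits and open points genes called with all libraries and not without set 1, the line marks equal values, and every point lies in the quadrant where both fits have the same sign.

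The genes of the reporters show how the sort divided the cells. Aldh1l1 (ENSMUSG00000030088, chromosome 6, 90486427 to 90600203, GRCm38) was at 209, 323, 693 and 399 CPM in the eGFP libraries of sets 1, 2, 3 and 5, the order used throughout, and at 531, 639, 912 and 807 in the eGFP/tdTomato libraries. The ranges overlapped, and the difference did not pass (0.83 ± 0.35 on the log2 scale, SE, edgeR adjusted p = 0.404). Within every set the eGFP/tdTomato library was the higher, as it was for 13.35% of all genes tested. The levels of Olig2 (ENSMUSG00000039830, chromosome 16, 91225457 to 91228677) were 1.73, 5.17, 7.38 and 8.75 CPM in the eGFP and 41.5, 57.6, 106 and 92.8 CPM in the eGFP/tdTomato libraries, with no overlap. This is a 12.8-fold difference (3.68 ± 0.43, adjusted p = 0.000189, or 0.000401 without set 1), and since cells were sorted on an Olig2 reporter it describes the sort. The tdTomato fraction was at 258 ± 80.1 CPM of Olig2 (mean ± SD, n = 4) and 3.69 ± 1.83 CPM of Aldh1l1.

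Chst7, which codes for a sulfotransferase of chondroitin chains (ENSMUSG00000037347, chromosome X, 20059560 to 20097521), was close to absent without the red reporter. It was at 0.501, 1.02, 1.58 and 1.32 CPM in the eGFP libraries and 10.3, 8.05, 11.8 and 14.7 CPM in the eGFP/tdTomato libraries. All 4 libraries with both reporters stood above all 4 with eGFP alone, a 10.02-fold difference (3.33 ± 0.39, adjusted p = 0.000189, or 0.00211 without set 1). The tdTomato fraction was also low, at 0.731 ± 0.243 CPM, so Chst7 was highest in the libraries with both reporters.

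Hapln1 (ENSMUSG00000021613, chromosome 13, 89539796 to 89611652) codes for a link protein that holds proteoglycans to hyaluronan. It was at 3.79, 3.23, 3.39 and 2.72 CPM in the eGFP and 37.1, 23.7, 27.04 and 26.5 CPM in the eGFP/tdTomato libraries, and set 1 was the highest in each group. The difference was 8.72-fold (3.12 ± 0.43, adjusted p = 0.000708, or 0.00297 without set 1), with 0.376 ± 0.354 CPM in the tdTomato fraction. Grm5 (ENSMUSG00000049583, chromosome 7, 87584168 to 88134907), the metabotropic glutamate receptor that young astrocytes use to raise calcium, was at 14.3, 23.9, 25.4 and 29.6 CPM in the eGFP and 115, 79.9, 151 and 106 CPM in the eGFP/tdTomato libraries. It rose 4.84-fold (2.28 ± 0.26, adjusted p = 0.000162, or 0.00201 without set 1), and the tdTomato fraction was at 18.9 ± 4.49 CPM.

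Dcn and Pifo moved the other way. Dcn (ENSMUSG00000019929, chromosome 10, 97479609 to 97518143), the collagen-binding proteoglycan decorin of fibroblasts, was at 216, 673, 67.3 and 277 CPM in the eGFP and 5.18, 5.98, 2.71 and 3.89 CPM in the eGFP/tdTomato libraries. The eGFP libraries spread widely among themselves, with set 2 highest and set 3 lowest, yet the lowest of them stood above every library with both reporters (−6.12 ± 0.64, adjusted p = 8.44e-05, or 0.00195 without set 1; −5.38 without eGFP 2). Pifo (ENSMUSG00000010136, chromosome 3, 105996957 to 106014646), a gene of ciliated cells, was at 18.2, 51.2, 26.3 and 38.04 CPM in the eGFP and 0.5795, 0.758, 0.4896 and 0.518 CPM in the eGFP/tdTomato libraries, a 56.7-fold difference (−5.83 ± 0.49, adjusted p = 1.47e-05, or 0.00029 without set 1).

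**Figure D2:**
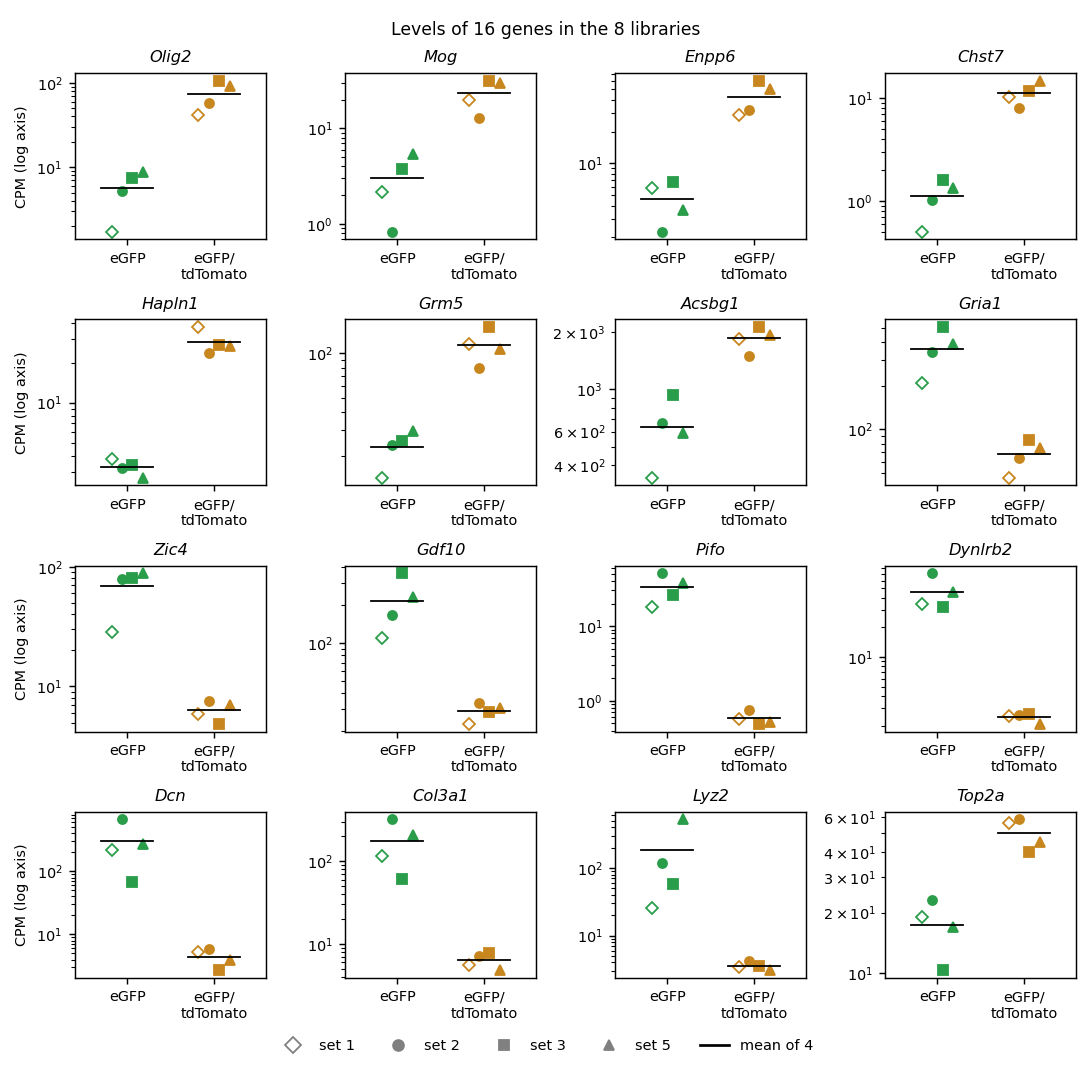
Levels in CPM (log axes, 1 panel per gene) of 16 genes in the 4 eGFP and 4 eGFP/tdTomato libraries, with set 1 as open diamonds, sets 2, 3 and 5 as filled circles, squares and triangles, and a line at the mean of 4. In each panel the 2 fractions do not overlap: Olig2 reaches 8.75 CPM at most in the eGFP libraries and 41.5 at least with both reporters, and Dynlrb2 32.7 at least and 2.598 at most.

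Part of the genes of the oligodendrocyte lineage were higher with both reporters. Their means there were 2.06 to 15.2% of the tdTomato mean for committed precursors, and under 5% for 19 of the 20 myelin genes, with Aspa, named after its value was seen, at 84.2%. Of 15 listed oligodendrocyte progenitor genes, 5 rose and none fell, with a median log2 fold change of 1.05 against −0.02 over all genes tested. The 5 were Gpr17, Sox10, Lims2, Olig1 and Kcnip3, described below. Gpr17 belongs to the committed stage and Sox10 to the whole lineage, and the progenitor gene Cspg4 did not pass. Of 15 genes of committed precursors, 5 rose and 1 fell (median 0.71), and of 20 myelin and mature oligodendrocyte genes 11 rose and none fell (median 1.73). Without set 1 the numbers were 5 and 0, 4 and 0, and 11 and 0, and without set 5 they were 0 and 0, 3 and 1, and 6 and 0.

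Mog, a surface glycoprotein of myelin, was at 2.17, 0.831, 3.801 and 5.43 CPM in the eGFP and 19.6, 12.7, 31.4 and 30.1 CPM in the eGFP/tdTomato libraries. The difference of 7.57-fold (2.92 ± 0.43, adjusted p = 0.00121, or 0.0162 without set 1) held with no overlap, and in both fractions sets 3 and 5 were above sets 1 and 2. The tdTomato fraction was at 2106 ± 376 CPM, so the libraries with both reporters reached 1.11% of its mean and the eGFP libraries 0.145%. Of the other myelin genes, Cldn11, the tight junction protein of the sheath, rose 5.997-fold, Ugt8a, the galactosylceramide synthase, 6.58-fold, Fa2h, a fatty acid hydroxylase, 4.99-fold, and Mal, a myelin proteolipid, 3.53-fold. Each of these 4 was called without set 1 as well (adjusted p from 0.00159 to 0.015). Myrf, the transcription factor that drives myelin genes, was not called with all libraries and was called without set 1. It was at 9.08, 1.52, 4.102 and 3.09 CPM in the eGFP and 7.74, 9.17, 12.2 and 16.96 CPM in the eGFP/tdTomato libraries, with eGFP 1 inside the range of the other fraction (adjusted p = 0.122 with all libraries and 0.0113 without set 1).

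Among genes of committed precursors, Enpp6, a choline phosphodiesterase that marks newly forming oligodendrocytes, was at 5.79, 2.26, 6.62 and 3.62 CPM in the eGFP and 28.6, 32.2, 60.4 and 50.2 CPM in the eGFP/tdTomato libraries. It rose 9.36-fold (3.23 ± 0.34, adjusted p = 8.44e-05, or 0.000925 without set 1) and reached 2.06% of the tdTomato mean. Bcas1 rose 5.46-fold, Bmp4, a growth factor that this stage secretes, 4.55-fold, and Zfp488, a zinc finger factor of the lineage, 3.62-fold, each called with and without set 1. Nfasc, an adhesion protein of axon contacts, rose 2.67-fold, and Tmem163, a zinc transporter, fell 3.13-fold, from 10.4, 24.4, 14.7 and 10.4 to 4.33, 3.95, 2.37 and 8.48 CPM. Neither was called without set 1 (adjusted p = 0.068 and 0.075), Nfasc was not called without eGFP replicates 1, 2 or 5 or eGFP/tdTomato replicates 2, 3 or 5 (adjusted p from 0.0559 to 0.132), and Tmem163 was not called without eGFP replicate 2 or eGFP/tdTomato replicates 1, 2 or 3 (adjusted p from 0.0765 to 0.111).

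Progenitor genes differed in how near they came to the tdTomato level. Gpr17, a receptor of the committed stage, was at 2.34, 0.0924, 3.199 and 2.72 CPM in the eGFP and 8.86, 15.2, 43.7 and 39.3 CPM in the eGFP/tdTomato libraries, and sets 3 and 5 were well above sets 1 and 2 with both reporters. It rose 12.7-fold (adjusted p = 0.00481, or 0.0162 without set 1) and was at 2.44% of the tdTomato mean. Sox10, the factor common to the whole lineage, rose 8.55-fold (adjusted p = 0.00481, or 0.00556) to 2.597% of the tdTomato mean. Lims2 rose 2.43-fold, but it overlaps Gpr17 on the opposite strand over 6.14% of its exonic bases, and it was not called without eGFP replicates 2 or 5 or eGFP/tdTomato replicate 5 (adjusted p from 0.0618 to 0.0668).

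Olig1, the partner of Olig2, and Kcnip3, a calcium-binding protein of potassium channels, came nearer to the tdTomato level or passed it. Olig1 was at 72.1, 144, 352 and 159 CPM in the eGFP and 414, 445, 967 and 818 CPM in the eGFP/tdTomato libraries, and the latter mean was 63.6% of the tdTomato mean. The 3.64-fold rise was called with all libraries (adjusted p = 0.0253) and not without set 1 (0.0535) or without eGFP replicates 2 or 5 or eGFP/tdTomato replicates 3 or 5 (adjusted p from 0.0844 to 0.116). Kcnip3 rose 3.65-fold, to 404, 349.5, 615 and 468 CPM, above the tdTomato fraction (72.7 ± 18.6 CPM). Cspg4, the NG2 proteoglycan of progenitors, was at 5.63, 5.31, 7.98 and 9.09 CPM in the eGFP and 12.1, 12.6, 13.5 and 12.6 CPM in the eGFP/tdTomato libraries and did not pass (0.85 ± 0.23, adjusted p = 0.0713).

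**Figure D3:**
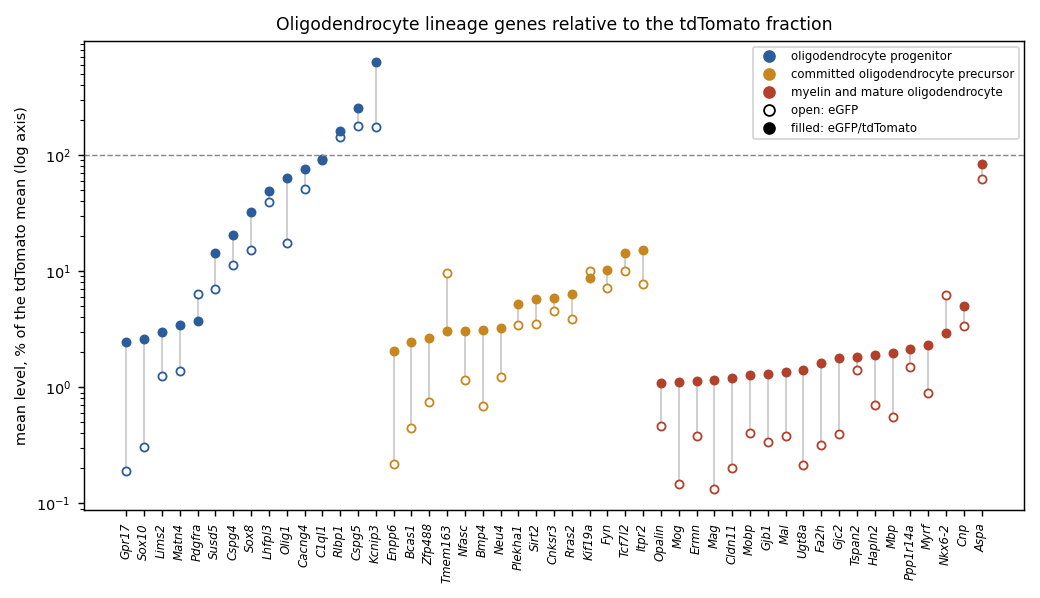
Mean level of 49 oligodendrocyte lineage genes in the eGFP (open) and eGFP/tdTomato (filled) fractions as a percent of the tdTomato mean (log axis), by gene and coloured by list, with a dashed line at 100%. With both reporters, Mog lies at 1.11% and Enpp6 at 2.06%, while Olig1 lies at 63.6% and Kcnip3 above the line.

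Of the remaining genes among the 12 that rose with the smallest p (predicted and clone names left out, here and in the other rankings by p), several were also genes of the tdTomato fraction. Vxn, which codes for the neural differentiation protein vexin, was at 2.51, 2.26, 2.33 and 4.34 CPM in the eGFP and 17.2, 18.7, 30.5 and 28.4 CPM in the eGFP/tdTomato libraries (8.23-fold, adjusted p = 2.63e-05, or 0.000576 without set 1), and at 725 ± 146 CPM in the tdTomato fraction. Ppp1r16b, a regulatory subunit of protein phosphatase 1, was at 6.798, 5.82, 9.82 and 11.02 and 50.5, 40.8, 66.8 and 68.5 CPM in the same order (6.75-fold, adjusted p = 2.51e-05, or 0.000756) and at 2688 ± 377 CPM with tdTomato alone. Slc1a1, a glutamate transporter best known from neurons, rose 9.602-fold and Zfp365 3.97-fold. No overlap of the fractions was a condition for being among the 12. Slc1a1 shares 31.9% of its exonic bases with a gene on the opposite strand.

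A second group rose with both reporters and was lower in the tdTomato fraction than there. Beside Chst7, Hapln1 and Grm5, the genes of this kind with the smallest p were Arpp21, Sez6l, Cth, Cyp4f15 and Pla2g3. Sez6l, a membrane protein related to the epilepsy gene Sez6, was at 23.1, 62.7, 87.2 and 40.9 CPM in the eGFP and 342, 297, 612 and 471 CPM in the eGFP/tdTomato libraries. It rose 8.05-fold (3.01 ± 0.38, adjusted p = 0.000319, or 0.00195 without set 1), and the tdTomato fraction was at 266 ± 86.2 CPM. Arpp21, a regulator of calmodulin signalling, was at 25.3, 25.8, 29.7 and 30.1 CPM in the eGFP and 111, 73.1, 106 and 84.7 CPM in the eGFP/tdTomato libraries, a 3.38-fold difference (adjusted p = 8.44e-05, or 0.00194), with the 4 eGFP values within a narrow range.

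The other 3 code for enzymes, with means of 0.176 to 4.40 CPM in the tdTomato fraction. Cyp4f15, a cytochrome P450 that hydroxylates fatty acids, was at 4.57, 7.07, 7.45 and 4.19 CPM in the eGFP and 50.6, 37.7, 41.6 and 27.04 CPM in the eGFP/tdTomato libraries (6.73-fold, adjusted p = 0.00046, or 0.0123 without set 1). Pla2g3, a secreted phospholipase A2, was at 53.6, 58.5, 86.9 and 56.9 CPM and 231, 281, 307 and 244 CPM (4.15-fold, adjusted p = 0.000611, or 0.00826). Cth, the enzyme that makes cysteine from cystathionine, was at 5.91, 6.698, 9.75 and 6.604 CPM and 29.9, 22.3, 32.2 and 19.96 CPM (3.599-fold, adjusted p = 0.000408, or 0.00914). No overlap of the fractions was a condition for naming these 3.

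Astrocyte genes were abundant in both fractions and most lay somewhat above the eGFP level with both reporters. Of 35 astrocyte identity genes, 3 rose and none fell, 30 had a positive log2 fold change, and the median was 0.70, or 0.46 without set 1 (−0.02 and 0.12 over all genes tested). The list summed to 44450, 60490, 72920 and 57210 CPM in the eGFP and 71500, 70280, 84640 and 72930 CPM in the eGFP/tdTomato libraries, so the ranges overlapped and eGFP 1 was the lowest. In the tdTomato fraction the sum was 1782 to 2430 CPM. With 1 library left out at a time, 1 to 13 of the 35 were called higher, and none was without set 5.

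Acsbg1, an acyl-CoA synthetase for long fatty acids, was at 344, 667, 938 and 592 CPM in the eGFP and 1845, 1492, 2122 and 1929 CPM in the eGFP/tdTomato libraries. It rose 2.91-fold (1.54 ± 0.26, adjusted p = 0.00369, or 0.0103 without set 1). Gjb6, the astrocyte connexin 30, rose 2.78-fold, to 250.1, 160.1, 216 and 186 CPM (adjusted p = 0.0308), and Slc7a10, a carrier of D-serine and small neutral amino acids, 2.56-fold, to 619.6, 607, 989.7 and 809.5 CPM (adjusted p = 0.0481). Gjb6 was not called without set 1 (0.152) or without eGFP replicates 1 or 5 or eGFP/tdTomato replicates 1, 3 or 5 (adjusted p from 0.066 to 0.187). Slc7a10 was called without set 1 (0.0407) and not called without eGFP replicates 2 or 5 or eGFP/tdTomato replicates 1, 2, 3 or 5 (adjusted p from 0.0647 to 0.243). Slc1a2, the main glutamate transporter, was at 1268, 1702, 2141 and 1399 CPM and 3168, 2511, 3246 and 2981 CPM and did not pass (0.87 ± 0.23, adjusted p = 0.0692), although the fractions did not overlap.

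Genes of radial glia and immature astroglia went both ways, with 1 of 19 higher, 2 lower and a median of 0.21. Nes, the intermediate filament nestin, was at 26.6, 26.7, 35.6 and 29.96 CPM in the eGFP and 6.51, 3.99, 5.88 and 4.74 CPM in the eGFP/tdTomato libraries. It fell 5.62-fold (−2.49 ± 0.31, adjusted p = 0.000319, or 0.00318 without set 1), with a tdTomato level of 4.95 ± 2.34 CPM. Lix1 fell 1.81-fold (adjusted p = 0.0439, or 0.01 without set 1) and was not called without eGFP replicates 2, 3 or 5 or eGFP/tdTomato replicates 1, 2, 3 or 5 (adjusted p from 0.083 to 0.197). Vim, the filament vimentin, was at 268, 388, 486 and 308 CPM and 138, 193, 268 and 207 CPM and did not pass (adjusted p = 0.0748). Hes5, a Notch target that keeps progenitors undifferentiated, was at 26.3, 28.9, 34.2 and 25.4 CPM and 105, 76.9, 118 and 113 CPM, a 3.59-fold rise (adjusted p = 0.0122) that was not called without set 1 (0.105) or without eGFP replicate 5 (adjusted p = 0.0663).

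Factors of the dorsoventral axis differed gene by gene. Of 18 roof plate and dorsal domain factors, 2 fell and none rose (median 0.13), of 5 Zic factors 1 fell (median −0.90), and of 13 floor plate and ventral domain factors 2 rose and 1 fell (median −0.25, or 0.32 without set 1). Zic4, of the dorsal midline, was at 28.4, 79.6, 81.2 and 88.7 CPM in the eGFP and 5.86, 7.58, 4.86 and 7 CPM in the eGFP/tdTomato libraries. It fell 10.98-fold (−3.46 ± 0.39, adjusted p = 0.000139, or 0.000419 without set 1), and eGFP 1 was the lowest of its fraction. Its neighbour Zic1 did not follow: it was at 16.99, 25.5, 33.7 and 23.8 CPM and 17.4, 16.5, 24.2 and 18.6 CPM, with overlap (−0.39 ± 0.25, adjusted p = 0.775). Zic2 and Zic5 had −2.12 and −0.70 and did not pass.

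Lmx1a, the factor that specifies the roof plate, was at 7.19, 6.93, 13.8 and 8.34 CPM in the eGFP and 0.989, 1.32, 0.8285 and 0.852 CPM in the eGFP/tdTomato libraries (9.08-fold lower, adjusted p = 0.000129, or 0.00181 without set 1). Msx1, a dorsal target of BMP signals, was at 53.6, 81.2, 118 and 87.5 CPM and 18.2, 29.1, 34.3 and 31.9 CPM (2.996-fold lower, adjusted p = 0.00184, or 0.0018). Both were below 1 CPM on average in the tdTomato fraction. Dbx2, a factor of intermediate progenitors, was at 88.8, 149.8, 228 and 135 CPM and 213, 204, 291 and 251 CPM and did not pass (adjusted p = 0.277).

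Ventral genes included rises and a fall. Nkx2-2, of the ventral progenitor domains and of oligodendrocyte precursors, was at 1.89, 1.02, 3.46 and 2.49 CPM in the eGFP and 8.56, 9.89, 14.8 and 11 CPM in the eGFP/tdTomato libraries (4.94-fold higher, adjusted p = 0.000555, or 0.00735 without set 1), and at 43.2 ± 7.78 CPM with tdTomato alone. Slit1 and Slit2, repellent cues of growing axons, moved apart. Slit2 was at 40.4, 39.6, 52.5 and 43.1 CPM and 8.62, 16.6, 15.7 and 8.26 CPM (3.57-fold lower, adjusted p = 0.000457, or 0.00593 without set 1). Slit1 was at 12.9, 9.47, 36.9 and 15.02 CPM and 36.7, 45.7, 75.3 and 58.4 CPM (2.904-fold higher, adjusted p = 0.039), with eGFP 3 just above the lowest library of both reporters. Slit1 was not called without set 1 (0.102) or without eGFP replicates 1, 2 or 5 or eGFP/tdTomato replicates 2, 3 or 5 (adjusted p from 0.0595 to 0.165), and was at 2.13 without eGFP 3. Nkx6-1, a ventral homeobox factor, did not pass (0.36 ± 0.20, adjusted p = 0.662).

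Most genes of the motile cilium were lower with both reporters. Of 34 genes of the ciliary axoneme and its assembly, 29 fell and none rose, with a median log2 fold change of −3.22, and 25 of 34 fell without set 1 (median −3.31). The list summed to 859, 1664, 1036 and 1556 CPM in the eGFP and 165, 202, 126 and 176 CPM in the eGFP/tdTomato libraries, and to 47.6 to 76.8 CPM in the tdTomato fraction. With 1 library left out at a time 24 to 30 of the 34 were called lower, and 21 without set 5.

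Fam216b, a gene of ciliated epithelia, was at 86.2, 170.5, 112 and 201 CPM in the eGFP and 1.5, 3.99, 2.26 and 4.26 CPM in the eGFP/tdTomato libraries (−5.57 ± 0.50, adjusted p = 2.51e-05, or 0.000367 without set 1). Mlf1, a centrosome and cilium protein, was at 56.3, 138, 59.9 and 110.4 CPM and 6, 8.13, 5.95 and 4.59 CPM (−3.89 ± 0.33, adjusted p = 1.47e-05, or 0.000344). Cfap43 and Spef2, which build the axoneme's central and microtubule inner parts, fell 7.25-fold and 4.96-fold and kept 3.95, 6.699, 6.48 and 6.59 and 11.4, 14.7, 10.2 and 11.3 CPM. The fall thus ranged from 56.7-fold for Pifo to 4.96-fold for Spef2 among the genes given here so far. Of 4 further genes among the 12 lower genes with the smallest p, Fam183b fell 37.7-fold, Mapk15, a kinase of the ciliary base, 16-fold, Spag8 10.2-fold and Ubxn11 5.75-fold.

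The dynein light chains show the difference within a gene pair. Dynlrb2, which serves ciliary dynein, was at 34.5, 71.7, 32.7 and 45.8 CPM in the eGFP and 2.52, 2.59, 2.598 and 2.07 CPM in the eGFP/tdTomato libraries (18.8-fold lower, adjusted p = 1.47e-05, or 0.000282 without set 1). Its paralog Dynlrb1, of the cytoplasmic dynein found in all cells, was at 124, 217, 189.9 and 161 CPM and 181, 147, 181 and 183 CPM, with overlap, and did not pass (adjusted p = 1).

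The promoters of these genes were searched for the X-box, the motif of the RFX factors that serve ciliary genes. Shown are Dynlrb2, its paralog Dynlrb1, and 2 others from the list, from 250 bases before to 50 after the annotated start, from RefSeq on GRCm38.p6 and written 5′ to 3′ on the strand of the gene. Capitals mark a full X-box in Pifo (chr3:106001448-106001747, minus strand), a looser form of it in Dynlrb2 (chr8:116504765-116505064, plus strand) and the half-site alone in Mlf1 (chr3:67373847-67374146, plus strand). Dynlrb1 (chr2:155236283-155236582, plus strand) has none of these forms in this window and no capitals. Pifo and Dynlrb1 each have 2 promoters in the table. The 1 with more matches is shown, or the first by position where they tie. The other Pifo promoter (chr3:106014597-106014896), at the 5′ end of the gene span given above, holds none of these forms.
Dynlrb2: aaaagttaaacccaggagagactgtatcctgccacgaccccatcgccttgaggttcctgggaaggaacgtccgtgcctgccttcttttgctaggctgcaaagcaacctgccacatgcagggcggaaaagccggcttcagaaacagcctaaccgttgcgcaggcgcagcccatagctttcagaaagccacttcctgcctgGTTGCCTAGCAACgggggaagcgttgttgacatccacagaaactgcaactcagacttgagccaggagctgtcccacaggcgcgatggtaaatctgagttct
Dynlrb1: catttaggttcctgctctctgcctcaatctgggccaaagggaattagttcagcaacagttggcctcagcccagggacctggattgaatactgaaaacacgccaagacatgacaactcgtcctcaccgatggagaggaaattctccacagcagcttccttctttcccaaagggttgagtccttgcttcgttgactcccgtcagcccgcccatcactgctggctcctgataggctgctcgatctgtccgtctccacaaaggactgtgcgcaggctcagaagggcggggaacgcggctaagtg
Pifo: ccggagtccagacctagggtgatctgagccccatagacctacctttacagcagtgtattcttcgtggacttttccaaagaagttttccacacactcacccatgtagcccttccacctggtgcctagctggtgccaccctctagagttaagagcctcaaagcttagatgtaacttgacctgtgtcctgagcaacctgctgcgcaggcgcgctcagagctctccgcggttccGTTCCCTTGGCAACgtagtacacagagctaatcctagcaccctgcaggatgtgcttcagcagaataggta
Mlf1: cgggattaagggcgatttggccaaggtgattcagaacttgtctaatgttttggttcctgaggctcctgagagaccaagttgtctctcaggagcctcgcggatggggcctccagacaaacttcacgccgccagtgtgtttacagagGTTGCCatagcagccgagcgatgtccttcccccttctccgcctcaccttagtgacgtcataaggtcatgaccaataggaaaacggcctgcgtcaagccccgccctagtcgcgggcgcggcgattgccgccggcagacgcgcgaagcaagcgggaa

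The half-site was GTTGCC on either strand, and 16 of the 32 listed cilium genes with a promoter in the table held it (50%), against 14.1% of all 27025 genes with a promoter. The full X-box was GTTNCC followed after 0 to 3 bases by GGNAAC, on either strand, which 1 of the 32 held (Pifo, 3.12%, against 0.936% of all). With the second part loosened to NGNAAC, a form chosen after the sequences were seen, 11 of 32 held it (34.4%, against 2.14%), and Dynlrb2 has this form. The half-site is contained in some full forms, so the counts are not separate. A match is a description of these letters only.

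Of 11 regulators of ciliogenesis, 1 fell and none rose (median −0.64). Foxj1, the factor that switches on motile cilia, was at 11.6, 17.7, 52.8 and 31.4 CPM in the eGFP and 1.81, 3.75, 8.59 and 6.63 CPM in the eGFP/tdTomato libraries, with set 3 highest and set 1 lowest in each (5.47-fold lower, adjusted p = 0.0243, or 0.0424 without set 1). It was not called without eGFP replicates 3 or 5 or eGFP/tdTomato replicates 1, 2 or 5 (adjusted p from 0.0513 to 0.0821). Rfx2 and Rfx3, which bind the X-box, were at 30.6, 31.3, 59.8 and 33.96 and 101, 172, 183 and 170.1 CPM in the eGFP libraries and at 9.07, 19.6, 28.4 and 18.7 and 107, 97.3, 119 and 81.5 CPM with both reporters, and neither passed (adjusted p = 0.442 and 0.186).

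**Figure D4:**
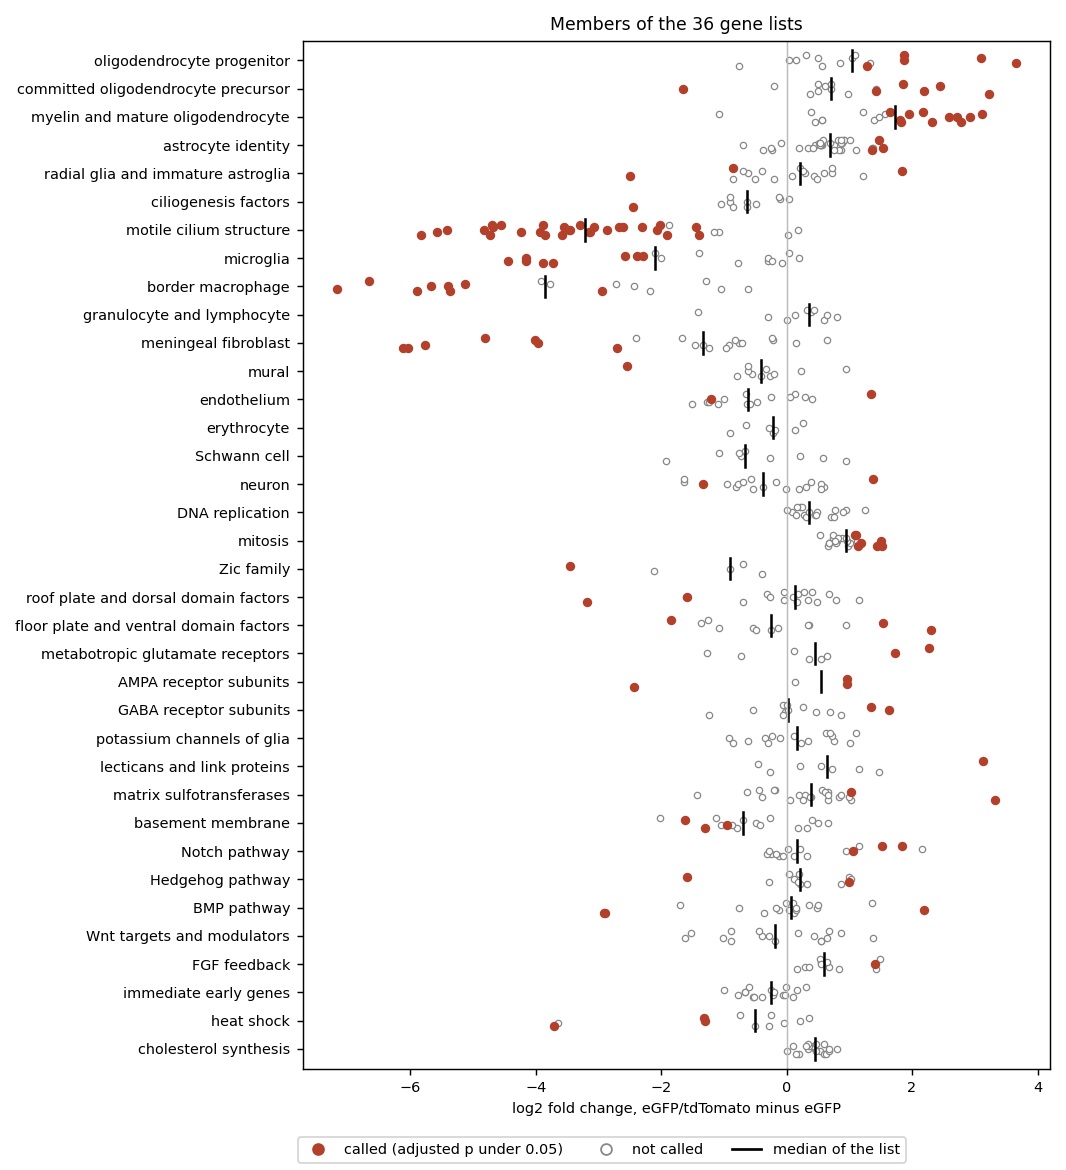
Log2 fold change (eGFP/tdTomato minus eGFP, x axis) of each tested member of the 36 gene lists (1 list per line), with called members filled, the others open and a bar at the median of the list. The motile cilium list lies furthest to the left as a whole after the border macrophage list (medians −3.22 and −3.85), and the myelin list furthest to the right (1.73).

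Macrophage genes were lower with both reporters. Of 16 genes of border macrophages, 8 fell and none rose (median −3.85, or 8 and −4.17 without set 1), and of 19 genes of microglia 8 fell and none rose (median −2.10, or 7 and −2.31). No member was at 0 in all libraries of either fraction. The border macrophage list summed to 116, 302, 150.0 and 1380 CPM in the eGFP and 29.5, 41.3, 21.8 and 30.9 CPM in the eGFP/tdTomato libraries, so eGFP 5 held several times more than any other library. The microglia list summed to 208, 324, 383 and 725 CPM and 196, 211, 283 and 184 CPM, and these ranges overlapped. Without set 5, 5 border macrophage and 2 microglia genes were called lower.

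Lyz2, the lysozyme of macrophages, was at 25.2, 117, 57.2 and 527 CPM in the eGFP and 3.44, 4.23, 3.54 and 3.07 CPM in the eGFP/tdTomato libraries. The log2 fold change was −5.67 ± 0.79 (adjusted p = 0.000745, or 0.00175 without set 1), and −4.28 without eGFP 5. Wfdc17 was at 6.91, 34.4, 7.56 and 119 CPM and 0.307, 0.359, 0.0377 and 0.444 CPM (−7.17 ± 1.00, adjusted p = 0.000725), or −5.87 without eGFP 5. Cbr2, Fcna, Lyve1 and F13a1, all marks of border macrophages, had −6.66, −5.88, −5.40 and −5.36, and −5.10, −4.45, −3.56 and −3.98 without eGFP 5. Lyve1 was at −5.98 without set 1. These genes were called with and without set 1, but F13a1 was not called without set 5 (adjusted p = 0.0585) or with no filter on low counts (0.0502), and limma-voom did not call Wfdc17, Cbr2, Lyve1 or Fcna (adjusted p = 0.152, 0.174, 0.0843 and 0.123).

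Among microglia genes, C1qc, a chain of the first complement component, was at 10.4, 19.4, 12.5 and 106 CPM in the eGFP and 1.81, 1.79, 2.48 and 2.19 CPM in the eGFP/tdTomato libraries (−4.16 ± 0.65, adjusted p = 0.00208, or 0.00898 without set 1; −2.80 without eGFP 5). Its partners C1qa and C1qb fell 14.8-fold and 21.7-fold, or by 2.59 and 2.89 on the log2 scale without eGFP 5. The signalling adaptors Tyrobp and Fcer1g fell 13.3-fold and 17.8-fold, or by 2.42 and 2.76 on the log2 scale without eGFP 5. Ctss, a lysosomal protease, fell 5.95-fold and was not called without eGFP replicate 5 or eGFP/tdTomato replicates 1 or 5 (adjusted p from 0.0618 to 0.0628). limma-voom did not call C1qb, Tyrobp or Fcer1g (adjusted p = 0.0517, 0.0528 and 0.203). C1qa, Tyrobp and Fcer1g were not called without set 5 (0.0838, 0.214 and 0.188), and Tyrobp was at −4.47 without eGFP/tdTomato 3. C1qa, C1qb, C1qc and Tyrobp were highest in eGFP 5, as was the border macrophage sum. Whether microglia or border macrophages carried these RNAs was not tested.

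Fibroblast genes of the meninges were also lower. Of 21 tested, 7 fell and none rose (median −1.33), or 5 of 21 without set 1 (median −1.07). The list summed to 955, 2307, 848 and 1404 CPM in the eGFP and 408, 469, 638 and 574 CPM in the eGFP/tdTomato libraries. Col3a1, a fibrillar collagen, was at 117, 322, 61.6 and 206 CPM and 5.52, 7.18, 7.79 and 4.82 CPM (−4.80 ± 0.54, adjusted p = 0.000139, or 0.00132 without set 1). Col1a1, the main chain of type I collagen, fell 15.6-fold, Lum, the proteoglycan lumican, 54.1-fold, and Aldh1a2, the retinoic acid enzyme of the meninges, 16.1-fold, each with no overlap and called without set 1. The chemokine gene Ccl11 was at 12.3, 53.5, 0.979 and 18.6 CPM and 0.307, 0.837, 0 and 0.148 CPM. Its fall (−6.04 ± 1.11, adjusted p = 0.00622) was not called without set 1 (0.0523) or by limma-voom (0.371), and the value was −5.01 without eGFP 2 and −7.05 without eGFP/tdTomato 2. Lum was at −6.64 without eGFP/tdTomato 2.

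Few genes of vessels passed the test. Of 11 mural genes 1 fell, Vtn, the adhesion protein vitronectin (5.86-fold, adjusted p = 0.012), which was not called without set 1 (0.0614) or without eGFP replicate 2 (adjusted p = 0.0553). Of 16 endothelial genes 1 fell, the membrane protein gene Itm2a (2.31-fold, adjusted p = 0.0173, or 0.032 without set 1), and 1 rose, Mfsd2a, a lipid carrier (2.53-fold, adjusted p = 0.0475, or 0.263 without set 1). Itm2a was not called without eGFP replicates 2 or 5 or eGFP/tdTomato replicates 1, 3 or 5 (adjusted p from 0.0647 to 0.0765), and Mfsd2a was not called without eGFP replicates 1, 2 or 5 or eGFP/tdTomato replicates 1, 2, 3 or 5 (adjusted p from 0.077 to 0.197). Cldn5, the junction protein of brain vessels, was at 4.62, 5.91, 7.56 and 3.09 CPM and 3.14, 1.51, 1.43 and 1.33 CPM (adjusted p = 0.0906, or 0.049 without set 1, where it was called lower). The mural list summed to 91.7 to 182 CPM in the eGFP and 107 to 219 CPM in the eGFP/tdTomato libraries, and the endothelial list to 224 to 395 and 304 to 379 CPM.

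No member of the erythrocyte (7 tested), Schwann cell (9 tested) or granulocyte and lymphocyte (10 tested) list passed, with medians of −0.21, −0.67 and 0.36. Of 19 neuron genes, Elavl3, an RNA-binding protein of young neurons, rose from 4.903, 2.45, 3.54 and 2.11 to 6.61, 8.25, 7.95 and 10.6 CPM (adjusted p = 0.00771, or 0.00309 without set 1). Elavl3 was highest in the tdTomato fraction, with a mean of 479 CPM, and the libraries with both reporters reached 1.74% of it. Uchl1, a ubiquitin hydrolase abundant in neurons, fell from 18.9, 31.6, 38.2 and 35.8 to 9.78, 11.8, 13.8 and 13.8 CPM (adjusted p = 0.00345, or 0.00341). Uchl1 shares 18.1% of its exonic bases with an antisense gene. Neither Elavl3 nor Uchl1 was called without set 2 (edgeR adjusted p = 0.118 and 0.0637) or without set 5 (0.129 and 0.0591). Elavl3 was also not called with the 8 libraries of the 2 fractions alone (0.0772). Gad2, which makes GABA, was at 16.99, 11.3, 15.2 and 20.98 CPM and 3.89, 6.02, 5.99 and 4.93 CPM and did not pass (adjusted p = 0.0531). The neuron list summed to 147 to 173 CPM in the eGFP, 86.8 to 123 CPM in the eGFP/tdTomato and 605 to 913 CPM in the tdTomato libraries. What part RNA of cilium-bearing cells, macrophages, fibroblasts or oligodendrocytes had in the differences of other genes was not tested.

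**Figure D5:**
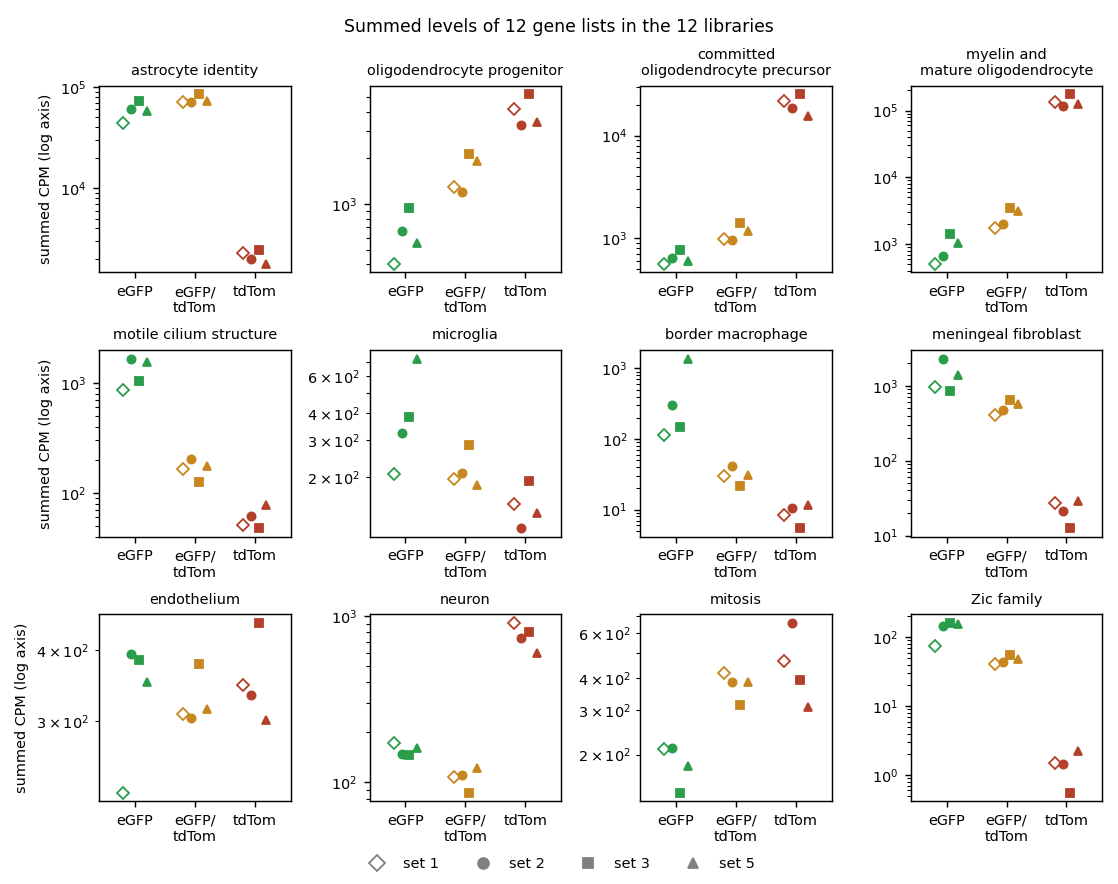
Summed CPM (log axes) of 12 gene lists in each of the 12 libraries, by fraction (eGFP, eGFP/tdTomato, tdTomato) and set (1 open diamond, 2 circle, 3 square, 5 triangle). The cilium sums of the eGFP libraries (859 to 1664 CPM) stand above those with both reporters (126 to 202 CPM), and eGFP 5 is the highest library for border macrophage genes (1380 CPM).

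Part of the genes of mitosis were called higher with both reporters, and none of those of DNA replication passed. Of 23 mitosis genes, 7 rose and none fell, all 23 had a positive log2 fold change, and the median was 0.95, with and without set 1. Without set 1, 1 was called (Ube2c), and with 1 library left out at a time 3 to 5. Of 19 DNA replication genes none passed, 18 were positive and the median was 0.35. With the replicate number as a block 3 of them were called higher, and with DESeq2 3, against 11 and 10 mitosis genes. The mitosis list summed to 209.8, 213, 142 and 180.0 CPM in the eGFP and 419, 385, 313 and 387 CPM in the eGFP/tdTomato libraries, with no overlap, and to 309 to 660 CPM in the tdTomato fraction. The sums of the DNA replication list did not overlap either, at 333 to 430 CPM in the eGFP and 488 to 552.5 CPM in the eGFP/tdTomato libraries.

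Ube2c, the ubiquitin enzyme of the anaphase-promoting complex, was at 4.18, 6.19, 3.01 and 5.17 CPM in the eGFP and 11.8, 13.4, 11.6 and 13.7 CPM in the eGFP/tdTomato libraries (1.45 ± 0.23, adjusted p = 0.00262, or 0.0293 without set 1). Top2a, the topoisomerase of dividing cells, was at 18.9, 23.1, 10.3 and 16.9 CPM and 55.8, 58.5, 39.9 and 45.1 CPM (1.53 ± 0.29, adjusted p = 0.00874, or 0.0731 without set 1). For both genes the set 3 library was the lowest of each group. Ccnb1, Ccna2 and Cdk1, the cyclins and kinase that start mitosis, rose 2.84-fold, 2.14-fold and 2.28-fold, and Prc1, of the spindle midzone, 2.21-fold. The remaining called gene was Nusap1, a spindle protein, chosen after its values were seen (1.09 ± 0.27, adjusted p = 0.0455, or 0.276 without set 1), and it was not called with any of the 8 libraries left out (adjusted p from 0.0601 to 0.166). Ccnb1, Ccna2, Cdk1 and Prc1 were not called without set 1 (adjusted p from 0.0648 to 0.207). Ccnb1 was not called without eGFP/tdTomato replicate 5 (adjusted p = 0.0503), Ccna2 without eGFP replicate 5 (adjusted p = 0.0508), Prc1 without eGFP replicates 1, 2 or 5 or eGFP/tdTomato replicates 1 or 2 (adjusted p from 0.0501 to 0.0645), and Cdk1 without eGFP replicates 1, 3 or 5 or eGFP/tdTomato replicates 1, 2, 3 or 5 (adjusted p from 0.0547 to 0.165). Mki67, the proliferation marker Ki-67, was at 20.4, 16.7, 7.45 and 11.8 CPM and 37.3, 30.7, 34.6 and 27.7 CPM and did not pass (adjusted p = 0.0559).

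The promoters of Ube2c (chr2:164769679-164769978, plus strand) and Top2a (chr11:99024140-99024439, minus strand) are shown because they carry the pair of motifs common to mitotic genes, with the same source and extent as above. Capitals mark the CCAAT box (CCAAT) and the CHR element (TTTGAA or TTTAAA), searched on both strands.
Ube2c: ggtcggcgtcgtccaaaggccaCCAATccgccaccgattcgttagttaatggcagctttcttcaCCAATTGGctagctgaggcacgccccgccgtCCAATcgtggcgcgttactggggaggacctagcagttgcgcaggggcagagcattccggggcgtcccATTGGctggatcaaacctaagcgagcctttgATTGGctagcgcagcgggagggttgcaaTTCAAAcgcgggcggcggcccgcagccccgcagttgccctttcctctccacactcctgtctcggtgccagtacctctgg
Top2a: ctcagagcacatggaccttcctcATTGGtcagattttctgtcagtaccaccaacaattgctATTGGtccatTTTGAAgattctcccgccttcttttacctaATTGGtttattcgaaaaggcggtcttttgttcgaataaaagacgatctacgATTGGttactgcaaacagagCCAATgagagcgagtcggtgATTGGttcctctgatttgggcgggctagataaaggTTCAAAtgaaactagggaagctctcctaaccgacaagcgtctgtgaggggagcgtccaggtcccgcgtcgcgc

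Of 19 mitosis genes with a promoter in the table, 16 held a CCAAT box (84.2%), 17 a CHR (89.5%) and 15 both (78.9%). The shares among all genes with a promoter were 41.1%, 30.6% and 12.2%. For the cilium list they were 34.4%, 18.8% and 3.12%. These counts describe the letters present.

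Receptors for transmitters changed by subunit. Of 8 metabotropic glutamate receptors, 2 rose and none fell (median 0.45): Grm5, above, and Grm3, the receptor that lowers cyclic AMP in astrocytes. Grm3 was at 84.8, 129, 138 and 59.7 CPM in the eGFP and 416, 296, 407 and 244 CPM in the eGFP/tdTomato libraries (1.73 ± 0.29, adjusted p = 0.0033, or 0.0334 without set 1), and at 2.48 ± 0.818 CPM with tdTomato alone. Grm7, of the group that couples to the same pathway, was at 41.01, 62.5, 104 and 59.2 CPM and 91.97, 102, 122 and 98.4 CPM and did not pass (adjusted p = 0.291). Grm8 was at 9.36 ± 4.24 CPM in the eGFP and 3.91 ± 1.43 CPM in the eGFP/tdTomato libraries (mean ± SD, n = 4 each, adjusted p = 0.21). Grm2, Grm4 and Grm6 had means of 0.812 to 2.26 CPM with both reporters and did not pass (adjusted p = 0.9999 for each).

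The AMPA receptor subunits moved in opposite directions. Gria1 was at 211, 342, 511 and 387 CPM in the eGFP and 46.3, 63.6, 84.5 and 74.4 CPM in the eGFP/tdTomato libraries, so it fell 5.396-fold (−2.43 ± 0.32, adjusted p = 0.000476, or 0.00224 without set 1), with 6.66 ± 3.03 CPM in the tdTomato fraction. Gria2, the subunit that blocks calcium entry, was at 32.99, 34.1, 31.3 and 30.1 CPM and 62.4, 61.4, 76.8 and 50.4 CPM (0.97 ± 0.18, adjusted p = 0.0054, or 0.0368 without set 1). Unlike Gria1, Gria2 was highest in the tdTomato fraction, with a mean of 276 CPM. Gria4 was at 66.8, 88.96, 96.2 and 69.6 CPM and 156, 128, 182 and 159 CPM (0.96 ± 0.21, adjusted p = 0.0208, or 0.0923 without set 1). Gria2 was not called without eGFP replicate 5 or eGFP/tdTomato replicate 3 (adjusted p from 0.0515 to 0.061), and Gria4 without eGFP replicates 1, 2 or 5 or eGFP/tdTomato replicates 1, 3 or 5 (adjusted p from 0.0539 to 0.155). Gria3 did not pass (0.13 ± 0.36, adjusted p = 1).

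Of 13 GABA receptor subunits, 2 rose and none fell (median 0.02, or −0.06 with scaling on protein-coding genes). Without set 1 the median was 0.47, against 0.12 over all genes tested. Gabrg1, a subunit of glial GABA-A receptors, was at 108, 173, 241 and 170.2 CPM in the eGFP and 462, 382, 491 and 417 CPM in the eGFP/tdTomato libraries (2.53-fold, adjusted p = 0.00358, or 0.0238 without set 1). Gabbr2, a subunit of the GABA-B receptor, rose 3.09-fold, from 23.2, 38.9, 63.1 and 36.98 to 95.3, 96.2, 183 and 127 CPM (adjusted p = 0.0057, or 0.0114). Neither was called without set 5 (edgeR adjusted p = 0.0559 for Gabrg1 and 0.102 for Gabbr2), and Gabbr2 was not called without set 2 (0.0606). Gabrg3 had 0.87 and did not pass (adjusted p = 0.107). Of 16 potassium channels of glia none passed, among them Kcnj10, the inward rectifier Kir4.1, at 183, 299, 466 and 365 CPM and 562, 477, 628 and 985 CPM (adjusted p = 0.0748).

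In the extracellular matrix, Hapln1 was the 1 of 8 lecticans and link proteins called (median 0.64). Ncan, the lectican neurocan, was at 9162, 8219, 7373 and 7208 CPM in the eGFP and 14040, 11440, 11120 and 10260 CPM in the eGFP/tdTomato libraries and did not pass (0.55 ± 0.29, adjusted p = 0.626), although every library with both reporters stood above every eGFP library. Bcan and Vcan, the lecticans brevican and versican, had 1.16 ± 0.48 (1.81 without eGFP 3) and −0.46 ± 0.22, Hapln3, Hapln4 and Acan had 0.73, 0.21 and −0.26, and none of the 5 passed. Hapln2, a link protein of myelinated fibres, was not called with all libraries and was called without set 1 (1.94, adjusted p = 0.045, against 1.47 ± 0.38 and 0.0582 with all libraries).

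Of 23 matrix sulfotransferases, 2 rose and none fell (median 0.39). Beside Chst7 this was Chst10, which adds the sulfate of the HNK-1 epitope. It was at 73.1, 143, 118 and 95.96 CPM in the eGFP and 229.5, 193, 245 and 207 CPM in the eGFP/tdTomato libraries (adjusted p = 0.0185), and was not called without set 1 (0.117) or without eGFP replicates 1 or 5 or eGFP/tdTomato replicates 1, 3 or 5 (adjusted p from 0.0528 to 0.177). Chst2 and Chst8 had 0.84 and 1.00 (adjusted p = 0.169 and 0.111). Of 17 basement membrane genes, 3 fell and none rose (median −0.70). Col4a1, a chain of type IV collagen, was at 22.8, 21.3, 27.4 and 25.2 CPM and 7.84, 10.7, 6.59 and 6.44 CPM (−1.61 ± 0.22, adjusted p = 0.000626, or 0.00719 without set 1). The laminin chains Lama2 and Lama1 fell 1.94-fold and 2.46-fold (adjusted p = 0.00592 and 0.0488, or 0.0284 and 0.214 without set 1). Lama1 was not called without eGFP replicates 2, 3 or 5 or eGFP/tdTomato replicates 1, 3 or 5 (adjusted p from 0.0576 to 0.164).

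In the BMP pathway 1 of 18 genes rose and 2 fell (median 0.07, or −0.03 with scaling on protein-coding genes). The ligands parted: Bmp4 rose, as given above, while Gdf10 and Bmp2 fell. Gdf10, also known as BMP3b, was at 110.3, 167, 358 and 231 CPM in the eGFP and 22.8, 33.3, 28.5 and 30.6 CPM in the eGFP/tdTomato libraries (−2.91 ± 0.38, adjusted p = 0.000457, or 0.000762 without set 1). Bmp2 was at 5.46, 5.63, 6.398 and 5.96 CPM and 1.26, 1.12, 0.4896 and 0.259 CPM (−2.90 ± 0.46, adjusted p = 0.0024, or 0.0102). Bmp7 and Bmp6 did not pass at 1.37 and −1.70 (adjusted p = 0.0584 and 0.127), although neither overlapped between the fractions.

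Of 16 Notch pathway genes, 3 rose and none fell (median 0.16): Hes5, described above, the effector Heyl, and the ligand Dll3, which was chosen after its values were seen. Heyl rose 2.07-fold, to 17.3, 17.9, 21.7 and 20.4 CPM (adjusted p = 0.0275), and was not called without set 1 (0.0811) or without eGFP replicates 1, 2 or 5 or eGFP/tdTomato replicates 1, 2, 3 or 5 (adjusted p from 0.0598 to 0.189). Dll3 was at 1.56, 0.831, 0.979 and 0.8302 CPM and 1.74, 4.59, 3.35 and 2.26 CPM (1.51 ± 0.35, adjusted p = 0.031, or 0.0208 without set 1), and was not called without eGFP replicates 2 or 5 or eGFP/tdTomato replicates 2 or 3 (adjusted p from 0.0643 to 0.104). The glycosyltransferase Lfng and the receptor Notch3 had 1.15 and 0.94 and did not pass (1.81 and 1.53 without eGFP 3).

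Of 12 Hedgehog pathway genes 1 rose and 1 fell (median 0.21). Cdon, a co-receptor, fell 2.996-fold, from 15.4, 14.04, 11.97 and 14.2 to 4.602, 5.26, 4.33 and 4.37 CPM (adjusted p = 0.00258, or 0.0196 without set 1). Hhip, which traps the ligand, rose 1.98-fold (adjusted p = 0.0149), but it did not pass without set 1 (0.0923) or without eGFP replicate 5 or eGFP/tdTomato replicates 1 or 3 (adjusted p from 0.0573 to 0.142). The receptor Ptch1 and the co-receptor Boc had 0.87 and 1.03 (adjusted p = 0.0533 and 0.0724). Of 12 FGF feedback genes all were positive and 1 was called (median 0.60): Spry4, an inhibitor of receptor tyrosine kinase signals, at 9.53, 12.1, 8.13 and 11.5 CPM and 26.4, 23.9, 30.8 and 28.1 CPM (adjusted p = 0.00632, or 0.0525 without set 1, where it was not called). Etv5 and Etv4, transcription factors induced by FGF, had 1.42 and 1.49 (adjusted p = 0.0533 and 0.11), and Etv4 was at 2.22 without eGFP 3. None of 17 Wnt targets and modulators passed (median −0.19, or 0.41 without set 1), with Frzb, a secreted Wnt antagonist, called lower without set 1 (−1.99, adjusted p = 0.0289).

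Genes that respond to handling of the tissue were compared as well. None of 17 immediate early genes passed (median −0.25), and their sum was 6155 to 9127 CPM in the eGFP and 6554 to 7609 CPM in the eGFP/tdTomato libraries, with Atf3, a stress-induced factor, at −0.78 (adjusted p = 0.248). Of 11 heat shock genes 3 fell and none rose (median −0.51). Hspa1a, an inducible Hsp70, was at 31.4, 82.03, 32.2 and 52.6 CPM in the eGFP and 3.31, 3.91, 4.59 and 3.37 CPM in the eGFP/tdTomato libraries (−3.71 ± 0.33, adjusted p = 2.51e-05, or 0.000481 without set 1). Its near-identical copy Hspa1b was at 27.6, 7.71, 19.6 and 49.7 CPM and 3.14, 0.0798, 1.39 and 3.74 CPM and did not pass (adjusted p = 0.0523), and reads may be divided between the copies. Dnajb1, a co-chaperone, fell 2.499-fold (adjusted p = 0.000973, or 0.00502). Hspb1, a small heat shock protein, fell 2.47-fold (adjusted p = 0.0345), but it did not pass without set 1 (0.0699) or without eGFP replicates 2, 3 or 5 or eGFP/tdTomato replicates 1, 2, 3 or 5 (adjusted p from 0.0508 to 0.127). None of 19 genes of cholesterol synthesis passed, although all 19 were positive (median 0.45). Msmo1, a sterol oxidase of that pathway, was at 0.67 (adjusted p = 0.146).

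The lower gene with the smallest p was none of the above. Cavin2, a protein of caveolae, was at 36.9, 77.7, 83.3 and 128 CPM in the eGFP and 2.28, 3.07, 1.96 and 3.07 CPM in the eGFP/tdTomato libraries, with 6.35 ± 1.03 CPM in the tdTomato fraction. It fell 31.3-fold (−4.97 ± 0.35, adjusted p = 5.69e-06, or 2.35e-05 without set 1). The lowest of its group was eGFP 1, still above every library with both reporters, as the ranking required. Pcp4l1, a small protein related to the calmodulin regulator Pcp4, was at 87.3, 188, 149 and 179 CPM and 8.86, 6.899, 7.16 and 7.96 CPM (19.5-fold lower, adjusted p = 1.47e-05, or 2.35e-05).

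Leaving out set 1 changed the calls of some genes without turning any. Of those called with all libraries and not without set 1, the ones with the smallest p were Pbk, a mitotic kinase, Dcdc2a, a microtubule-binding protein, Ccna2, Ccl11 and C1qtnf2. Pbk was at 12.4, 19.9, 13.7 and 14.8 CPM in the eGFP and 50.7, 36.6, 34.7 and 43.5 CPM in the eGFP/tdTomato libraries (adjusted p = 0.00418, or 0.0643 without set 1). Dcdc2a was at 27.1, 14.2, 19.3 and 31.2 CPM and 9.03, 10.4, 6.93 and 8.48 CPM (0.00464 and 0.0579). C1qtnf2 had −3.97 ± 0.73, or −4.59 without eGFP/tdTomato 2 (0.00632 and 0.0733, and 0.123 by limma-voom). The fractions of each of these genes did not overlap.

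Of the genes called without set 1 and not with all libraries, those named by the same rule were Myrf, given above, Nipal4, Cfap298, Dusp18 and Sema5a. Nipal4, a magnesium transporter family gene, was at 3.68, 0.831, 0.527 and 2.08 CPM in the eGFP and 3.58, 4.31, 6.402 and 6.74 CPM in the eGFP/tdTomato libraries (1.6 ± 0.43 and adjusted p = 0.0699 with all libraries, 2.33 and 0.0113 without set 1). Sema5a, a guidance molecule, was at 15.5, 10.2, 9.45 and 7.09 CPM and 15.8, 20.02, 21.3 and 22.4 CPM (1.25 and 0.0181 without set 1). Cfap298, of ciliary dynein assembly, was at 17.4, 42.8, 40.6 and 42.8 CPM and 16.9, 14.4, 21.2 and 19.2 CPM, and the phosphatase gene Dusp18 at 29.1, 55.7, 68.8 and 60.8 CPM and 29.1, 28.1, 30.01 and 30.9 CPM. In Nipal4, Myrf, Cfap298 and Dusp18, eGFP 1 lay inside the range of the other fraction, and the other 3 eGFP libraries lay outside it.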

How the data were processed

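The 12 files hold whole-number counts of reads per gene, which the authors deposited without normalization. STAR, HTSeq and the build GRCm38 (mm10) are named in the submitters' processing notes; versions, strand setting and annotation release are not given in the sources used here. Each file has 53465 gene identifiers and 5 lines that name no gene, which were left out of library sizes and tests. Gene symbols and coordinates were looked up in GENCODE M21, where 53360 identifiers were found (99.8%). Between 28.5 and 64.0% of the reads of a library were counted to genes, and the rest fell in those 5 lines. Mitochondrial genes had 0 counts in all libraries, and 1 listed gene (Tmem2) matched no identifier. The contrast of the 8 libraries was taken from a fit over all 12 libraries, grouped by label.

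Genes were filtered with edgeR's filterByExpr, scaled by TMM and tested with the quasi-likelihood test in edgeR 4.0.16 (R 4.3.3), with Benjamini-Hochberg adjustment over all genes tested and a threshold of 0.05. The test was checked on simulated counts. In these, fewer genes were changed than were called here, and no set effect or extra spread of eGFP 1 was added. The shares called therefore need not hold for the real libraries. With all libraries it called 25.4% of 67 genes changed 2-fold and 71.6% of 67 changed 4-fold. Without set 1 it called 8.96% and 65.7%. A gene that did not pass can therefore still differ between the fractions. CPM values use the TMM-scaled library sizes, and errors are SE for log2 fold changes and SD for means. Alternatives were DESeq2 1.42.0, limma-voom (limma 3.58.1), RLE factors, TMM factors from protein-coding genes, other filters, only the 8 libraries, a replicate block, and leaving out each library or set.

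Genes were named by rule: the markers; per direction the 12 with the smallest p called with and without set 1, at 5 CPM or more, with no overlap; 8 that were higher and above the tdTomato mean; 5 for each kind of change with set 1; up to 6 members of each of 36 lists; and 2 paralog pairs. Rankings by p left out predicted and clone names (such as Gm or Rik symbols). Not every gene that the rule allows is given. A few listed genes are counted in their lists but not reported here by name. Genes said to be chosen after their values were seen are outside it. The comparison, members and lists were chosen with earlier results of these data known.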

Additional observations from a re-analysis of the deposited data

Results flagged for a closer look

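In a group of 4, a library is listed here when its distance to the nearest of the other 3, as a share of the range of the group, exceeds Dixon's critical value. Of 618 groups of 4 tested, which are the genes given in the text, Other observations included, and the sums of the lists in the 3 fractions, 43 had such a library, and chance alone gives about 1 in 20. Values are CPM, with the nearest other library second.

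The library eGFP 1 was the highest of its group for Lims2 (4.74 and 2.97). The library eGFP 1 was the lowest of its group for Cfap298 (17.4 and 40.6), Lix1 (44.6 and 73.1), Rfx3 (101 and 170.1), Zic4 (28.4 and 79.6) and the Schwann cell list as a sum (151 and 218). The library eGFP 3 was the highest of its group for Etv4 (97.7 and 32.7), Notch3 (125 and 47.8), Pla2g3 (86.9 and 58.5) and Rfx2 (59.8 and 34.0). The library eGFP 3 was the lowest of its group for Ccnb1 (5.91 and 13.8). The library eGFP 5 was the highest of its group for C1qa (78.3 and 15.1), C1qb (118 and 20.4), C1qc (106 and 19.4), Cbr2 (80.5 and 14.6) and F13a1 (188 and 38.1). It was also the highest for Fcna (95.9 and 19.1), Lyve1 (98.0 and 10.2), Tyrobp (39.6 and 7.48), Vxn (4.34 and 2.51) and the border macrophage list as a sum (1380 and 302).

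The library eGFP/tdTomato 1 was the highest of its group for Cldn5 (3.14 and 1.51). The library eGFP/tdTomato 1 was the lowest of its group for Bmp4 (4.47 and 7.44), Cfap43 (3.95 and 6.48) and Nppc (1.70 and 3.54). The library eGFP/tdTomato 2 was the lowest of its group for Dynlrb1 (147 and 181). The library eGFP/tdTomato 3 was the highest of its group for Tyrobp (2.26 and 0.778) and the endothelium list as a sum (379 and 315). The library eGFP/tdTomato 5 was the lowest of its group for Dynlrb2 (2.07 and 2.52).

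The library tdTomato 1 was the highest of its group for Atf3 (3.21 and 1.66), Gabbr2 (9.13 and 6.02), the erythrocyte list as a sum (133 and 39.4) and the metabotropic glutamate receptors list as a sum (95.8 and 73.3). The library tdTomato 2 was the highest of its group for Boc (3.43 and 2.01). The library tdTomato 3 was the highest of its group for Cfap43 (3.98 and 2.86) and Ugt8a (5430 and 4005). The library tdTomato 5 was the highest of its group for Ccl11 (0.332 and 0.0445), Pifo (0.148 and 0) and Wfdc17 (0.148 and 0). The library tdTomato 5 was the lowest of its group for Nppc (0.775 and 1.16), the AMPA receptor subunits list as a sum (355 and 533), the Notch pathway list as a sum (165 and 239) and the heat shock list as a sum (2493 and 3091).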

How the results depend on the processing

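The direction of the 120 genes named in the text and called was the same in every alternative that gave them a value, and calls moved with the library set and the tool. With all libraries, 239 genes were higher and 491 lower. DESeq2 called 549 and 949. With the replicate number as a block, 566 were higher and 673 lower. Leaving out each library in turn, the counts ranged from 103 to 475 and from 323 to 656. Without set 1, 2 and 5, 137, 99 and 60 were higher, and without set 2 and 5, 238 and 201 were lower. The other settings (RLE or protein-coding TMM factors, limma-voom, other filters, the 8 libraries alone) gave 163 to 334 and 525 to 679. Without set 1, the counts of 137 and 369 became 392 and 860 with DESeq2, 589 and 712 with the block, 27 and 80 without set 2 as well, and 8 and 21 without set 5 as well. Where the cause of a change is not the smaller number of libraries, the cause was not tested. Scaling on protein-coding genes moved the median over all genes from −0.02 to −0.13.

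What a set shares is not given in the labels, and the replicate number was not taken to pair the samples: deviations of the same-numbered eGFP and eGFP/tdTomato libraries correlated at 0.268, 0.0469, 0.616 and 0.152 over 11978 genes, and not every library correlated best with its own number. Same-numbered tdTomato libraries correlated at 0.1 to 0.38 with eGFP and at 0.121 to 0.451 with eGFP/tdTomato libraries, and the Y-linked genes set all 3 libraries of set 3 apart, so whether a set shares animals was not settled. The block lost none of the 120 calls and added 25 named genes. Called astrocyte identity genes went from 3 to 12, mitosis genes from 7 to 11 and DNA replication genes from 0 to 3. Depth limits low genes most: eGFP 1, the shallowest library, held 12564767 counts.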

Other observations

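The genes in this section were chosen after their values were seen, from those called with all libraries. Several secreted signals and receptors were lower with both reporters. Prokr2, a receptor for prokineticins, was at 79.3, 105, 147 and 114 CPM in the eGFP and 2.15, 5.38, 2.75 and 3.19 CPM in the eGFP/tdTomato libraries (33.1-fold lower, edgeR adjusted p = 2.51e-05, or 0.000596 without set 1). Nppc, the C-type natriuretic peptide, was at 22.6, 55.3, 103 and 72.7 CPM and 1.704, 3.59, 3.54 and 3.56 CPM (20.4-fold lower, adjusted p = 3.07e-05, or 3.55e-05). Pdyn and Npy, the precursors of dynorphin and neuropeptide Y, fell 9.34-fold and 3.17-fold (adjusted p = 0.00112 and 0.00861, or 0.00569 and 0.0461). In all of these the fractions did not overlap. Lpar1, a lysophosphatidic acid receptor, was also lower with both reporters (57.6, 138, 94.5 and 119 against 18.3, 20.7, 21.7 and 15.8 CPM, adjusted p = 7.56e-05), although the tdTomato fraction was at 566 ± 79.1 CPM (mean ± SD, n = 4). Apod, the lipid carrier apolipoprotein D, showed the same order, with 242, 807, 75.4 and 278 CPM, 7.5, 8.57, 10.6 and 11.9 CPM and 782 ± 199 CPM in the eGFP, eGFP/tdTomato and tdTomato fractions (−5.18 ± 0.57, adjusted p = 0.000123, or 0.00288 without set 1; −4.34 without eGFP 2). Which cells carried either RNA was not tested.

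Among the genes that were higher with both reporters were carriers and enzymes of metabolism. Slc13a5 and Slc13a3, which carry citrate and other dicarboxylates and tricarboxylates, rose 3.44-fold and 4.07-fold, to 39, 36.9, 69.4 and 56.96 and 132, 112, 261 and 212 CPM (adjusted p = 0.00278 and 0.00697, or 0.011 and 0.0245 without set 1). Cyp7b1, a hydroxylase of oxysterols, rose 2.68-fold and Gatm, which makes the precursor of creatine, 2.52-fold (adjusted p = 0.00255 and 0.00399, or 0.0293 and 0.0237). The growth factor genes Fgf1 and Ptn rose 2.49-fold and 2.43-fold, and Egfl6, a secreted matrix protein, 2.903-fold, from 27.4, 43.4, 56.8 and 44.98 to 135, 112, 124 and 129.5 CPM. All 3 were called without set 1 (adjusted p = 0.0196, 0.0268 and 0.00896). The tdTomato fraction was lower than the eGFP/tdTomato fraction for each of these genes except Gatm, which was at 1086 ± 207 CPM there.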
